A study of Mus musculus with 12 samples.

Results

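The EGF family and its receptors were followed through 10 genes of the deposited count table, chosen by symbol from its 18514 rows. They were the EGF receptor ligands Areg, Ereg, Epgn, Btc, Hbegf and Tgfa, the neuregulin gene Nrg1, and the receptor genes Egfr, Erbb2 and Erbb3. Of these 10 genes, 9 passed the filter on low counts in a total of 15484 tested genes, and Epgn did not. RNA from the colorectum of 12 male C57BL/6 mice was sequenced, and each of the 4 groups held 3 mice with a library each. In the Model and Model_Swim groups, mice were injected with the carcinogen azoxymethane (AOM) once, at 10 mg/kg, and then had 3 cycles of drinking water with 2% dextran sodium sulfate (DSS), which injures the colon epithelium, for 7 days each. Mice of the Ctrl and Ctrl_Swim groups drank ordinary water and received neither agent. Training in the Ctrl_Swim and Model_Swim groups meant daily swimming, up to 90 min, from 2 months before that schedule to its end, while untrained mice stood in shallow water. All mice were bought at 4 weeks of age, and no source used here names a transgene or deletion in any group. The colon was taken from the distal cecum to the rectum, and the sources used here do not say which part of it, or whether tumour or surrounding tissue, went into the RNA.

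Ligands of the EGF family are made as precursors in the cell membrane and are released when metalloproteases of the ADAM type cut them. The soluble ligands bind EGFR, or, in the case of the neuregulins, ErbB3 and ErbB4, and the receptors then pair and signal through RAS and MAP kinases, PI3 kinase and STAT proteins. ErbB2 has no known ligand and acts as the preferred partner of the other receptors, and ErbB3 has little kinase activity of its own. In the intestine the pathway is known for driving epithelial division and wound repair, and it is under feedback by inhibitors that it induces itself. In bulk tissue of this kind, a change in the number of cells that make a transcript and a change in transcript per cell cannot be told apart.

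The ligand genes Epgn, Ereg, Areg and Btc lay next to each other on mouse chromosome 5, in RefSeq on GRCm38.p6, at chr5:91027517-91402994. This stretch of 375478 bp held these 4 protein-coding genes and no other, with Mthfd2l before it and Parm1 after it. The remaining genes lay on chromosomes 6 (Tgfa), 8 (Nrg1), 10 (Erbb3), 11 (Egfr and Erbb2) and 18 (Hbegf). RefSeq promoter windows of 300 bases, from 250 before to 50 after the gene start, were found for 6 of the 10 genes. Those of a pair of cluster neighbours (Areg, Btc), of the receptor that all 6 ligands use (Egfr) and of a ligand that was not called in any comparison (Tgfa) are shown 5′ to 3′ in gene orientation, with matches to the motifs below in capitals, at chr5:91139349-91139648 (+ strand), chr5:91402945-91403244 (- strand), chr11:16751953-16752252 (+ strand) and chr6:86194972-86195271 (+ strand).
Areg: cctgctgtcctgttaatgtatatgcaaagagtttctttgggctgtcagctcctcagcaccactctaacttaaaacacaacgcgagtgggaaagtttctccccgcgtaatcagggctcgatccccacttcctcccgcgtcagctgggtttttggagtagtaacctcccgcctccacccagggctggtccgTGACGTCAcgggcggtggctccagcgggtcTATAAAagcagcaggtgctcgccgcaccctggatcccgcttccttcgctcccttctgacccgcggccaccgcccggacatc
Btc: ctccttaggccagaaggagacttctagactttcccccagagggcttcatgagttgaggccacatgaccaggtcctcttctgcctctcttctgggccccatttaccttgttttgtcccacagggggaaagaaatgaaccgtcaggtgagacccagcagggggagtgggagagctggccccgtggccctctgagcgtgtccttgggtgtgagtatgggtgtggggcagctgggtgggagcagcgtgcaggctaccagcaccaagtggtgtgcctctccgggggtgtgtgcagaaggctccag
Egfr: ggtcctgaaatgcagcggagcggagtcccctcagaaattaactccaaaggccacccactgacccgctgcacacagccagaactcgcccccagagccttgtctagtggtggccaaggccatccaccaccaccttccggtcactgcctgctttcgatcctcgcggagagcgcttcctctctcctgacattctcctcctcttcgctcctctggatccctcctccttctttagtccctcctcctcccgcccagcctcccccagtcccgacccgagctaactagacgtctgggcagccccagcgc
Tgfa: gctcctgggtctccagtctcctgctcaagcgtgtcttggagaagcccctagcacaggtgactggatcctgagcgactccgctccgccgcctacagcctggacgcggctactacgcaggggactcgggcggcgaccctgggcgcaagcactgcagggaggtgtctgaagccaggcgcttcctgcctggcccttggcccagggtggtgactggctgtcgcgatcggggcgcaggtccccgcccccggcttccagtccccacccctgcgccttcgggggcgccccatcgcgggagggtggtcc

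Both strands of the windows were searched for the letters TGANTCA (AP-1), TGACGTCA (the cyclic AMP response element), GGAATG (TEAD), CTTTGAT (TCF) and TATAAA (the TATA box). The Areg window held TGACGTCA with its first base at -61 and TATAAA at -31 from the gene start. Among 32841 mouse promoter windows of that length, 1.79% held TGACGTCA and 13.6% held TATAAA. None of the 5 letter strings was found in the Btc, Egfr or Tgfa windows, and the AP-1, TEAD and TCF strings occurred in 7.81%, 14.7% and 3.73% of all windows. In the windows not shown, Epgn held TATAAA at -86 and Erbb2 held GGAATG at -88. The GC content was 59.3% for Areg, 60.3% for Btc, 62.3% for Egfr and 70.7% for Tgfa, against a median of 52.7% over all windows. These matches describe letters in the reference and were not measured as binding.

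Total counts lay between 17256953 and 19451055 per library, at which a count of 3 corresponds to at most 0.174 CPM (counts scaled to library size). The 9 tested genes had between 90 and 5759 counts in each library. Library sizes were scaled by the TMM method of edgeR, and limits from counting cover counting error only. Model 1 and Model 3 stood apart from all other libraries in 24 genes of pancreatic acinar cells. The summed CPM of these genes was 55712 and 27122 there and between 102 and 456 elsewhere, with 222 in Model 2. Genes of this list can pass the filter on low counts through Model 1 and Model 3, so no count of calls is given for it. The defining genes of colon epithelium (18 genes, none at 0 in any library) summed to between 33003 and 36981 CPM in Ctrl, to 28773 to 35448 in Ctrl_Swim, to 17454 to 31155 in Model and to 28759 to 31493 in Model_Swim. The markers of the labelled tissue were thus present in all libraries, with pancreatic RNA in addition in Model 1 and Model 3.

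**Figure D1:**
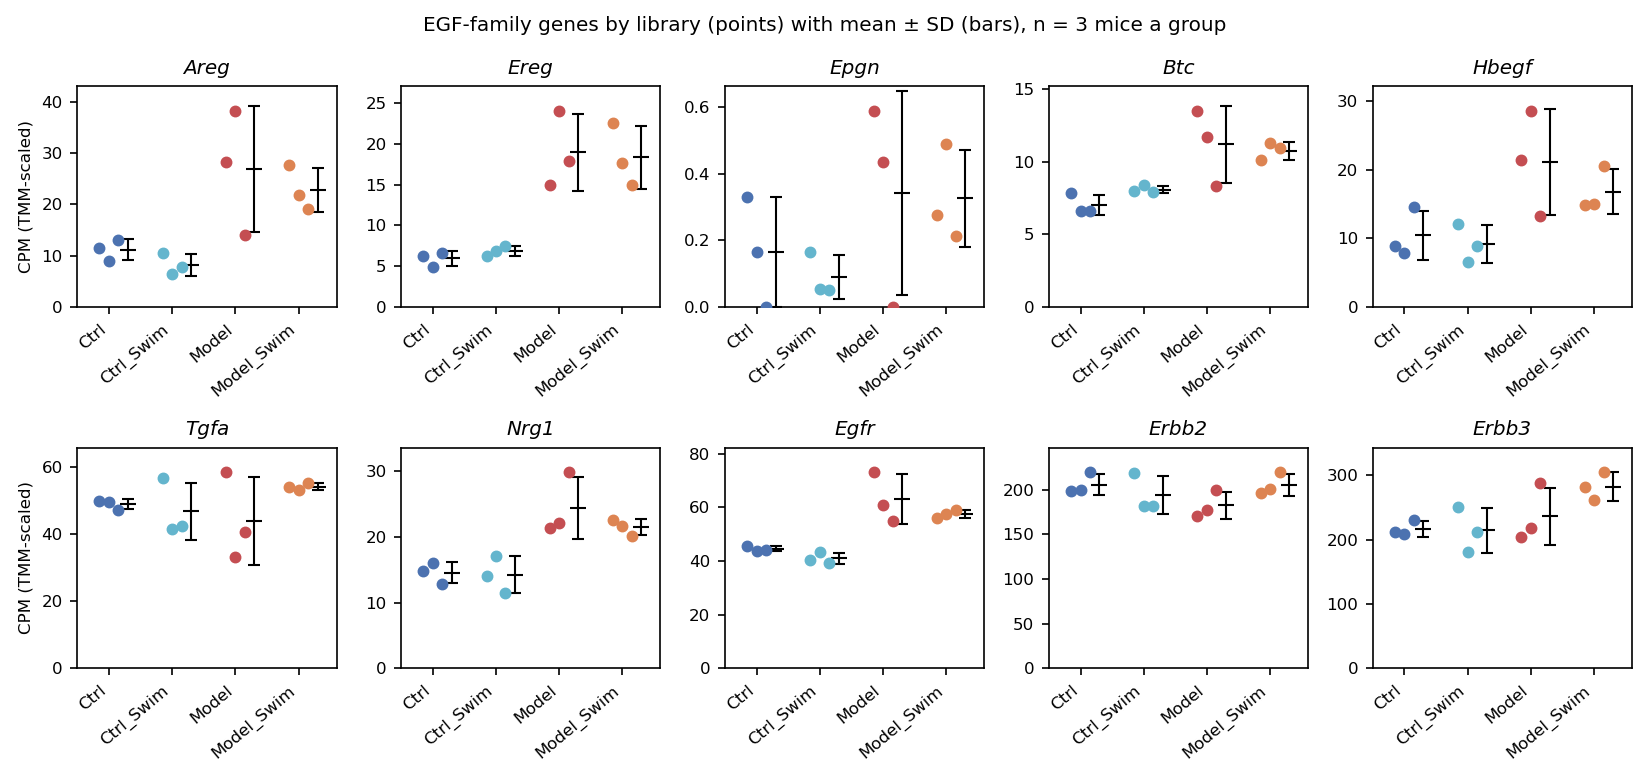
Expression of the 10 genes (y axes, TMM-scaled CPM, each from 0) in the 12 libraries, by group (x axes). Points are mice, black bars the mean ± SD of 3 mice; the Model and Model_Swim points of Ereg, Egfr, Nrg1 and Areg lie above all Ctrl and Ctrl_Swim points, while those of Tgfa and Erbb2 overlap them.

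Levels of different genes were compared per transcript length, in the FPKM values of the authors. In the Ctrl mice Erbb3 led with 50.8 ± 2.69 FPKM (SD, n = 3), followed by Erbb2 with 38.8 ± 2.28. The next were Tgfa with 10.1 ± 0.319 and Areg with 8.63 ± 1.54, whose ranges overlapped. Egfr stood at 6.51 ± 0.0720 FPKM, below both of these ligands and well below its partners Erbb2 and Erbb3. Hbegf had 4.13 ± 1.41 FPKM, Btc 2.29 ± 0.212, Ereg 1.35 ± 0.193 and Nrg1 0.905 ± 0.109, and from Areg down each gene's range was separate from that of the next. Epgn closed the order with 0.0909 ± 0.0905 FPKM. Erbb3 and Erbb2 also led in the other groups, with ranges separate from each other and from every ligand.

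In the Model mice, Areg came next after Erbb3 and Erbb2, with 22.7 ± 10.6 FPKM, ahead of Egfr with 9.97 ± 1.47, Tgfa with 9.84 ± 2.85 and Hbegf with 9.07 ± 3.43, which overlapped in a row. Ereg, at 4.68 ± 1.22 FPKM, had moved past Btc, at 3.97 ± 0.946, in the order of the means, but their ranges overlapped. In the Model_Swim mice Areg again came after both receptors, at 19 ± 3.46 FPKM, with a range above that of Tgfa at 12 ± 0.263. In the Ctrl_Swim mice Tgfa held this place at 10.5 ± 1.44 FPKM, with a range above that of Areg at 6.93 ± 1.53. In swimmers the ranges of Areg and Tgfa were thus separate in both groups, in opposite order. In untrained mice the means had the same opposite order, but the ranges of Areg and Tgfa overlapped in Ctrl and in Model.

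The comparison of Model with Ctrl asks what AOM and DSS changed in untrained mice. Of the 9 tested genes, 6 rose and none fell at an adjusted p under 0.05 (edgeR quasi-likelihood test, Benjamini-Hochberg over all tested genes), the criterion for "called" below. Over all tested genes 32.7% were called and 16.5% were called higher in this comparison. Areg, Ereg and Hbegf also passed the study's fold criterion of more than 2, as 7.43% of all tested genes did in either direction. The ranges of the groups did not overlap, all in the direction of Model above Ctrl, in 5 genes, against 44.2% of all tested genes in either direction. The median log2 fold change of the 9 genes was 0.67, and that of all tested genes was 0.0055.

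Ereg encodes epiregulin, a ligand of EGFR and ErbB4 that is made in epithelial and in immune cells. Its level was 6.29, 4.91 and 6.60 CPM in Ctrl 1, 2 and 3 and 14.9, 24.1 and 17.9 CPM in Model 1, 2 and 3. All Model mice lay far above all Ctrl mice. Ereg rose by 1.67 ± 0.21 on the log2 scale (SE), which is 3.19-fold with a 95% interval from 2.33 to 4.38 and an adjusted p of 0.000596 by edgeR. It had the largest fold change and the smallest adjusted p of the 9 genes.

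Areg encodes amphiregulin, an EGFR ligand known from epithelial repair. It stood at 11.5, 8.94 and 13.0 CPM in Ctrl 1, 2 and 3 and at 28.4, 38.4 and 14.0 CPM in Model 1, 2 and 3. Model 3 lay close to Ctrl 3, and the other Model mice lay far above, so the groups were separate by a narrow margin. Areg rose by 1.27 ± 0.32 on the log2 scale, 2.41-fold (95% interval 1.48 to 3.93), with an adjusted p of 0.0125 by edgeR. Without Ctrl 2, the adjusted p was 0.0529 at a log2 fold change of 1.16.

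Hbegf, the ligand that also binds heparin, had 8.89, 7.85 and 14.5 CPM in Ctrl 1, 2 and 3 and 21.4, 28.6 and 13.2 CPM in Model 1, 2 and 3. Model 3 lay below Ctrl 3, so the groups overlapped. The log2 fold change was 1.02 ± 0.32, 2.02-fold (1.24 to 3.30), with an adjusted p of 0.0328 by edgeR. This call was lost without Ctrl 1 (log2 fold change 0.94, adjusted p 0.0996), Ctrl 2 (0.87, 0.112), Model 1 (1.02, 0.0558) or Model 2 (0.76, 0.120).

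Btc encodes betacellulin, a ligand of EGFR and ErbB4. It had 7.84, 6.60 and 6.60 CPM in Ctrl 1, 2 and 3 and 13.5, 11.7 and 8.32 CPM in Model 1, 2 and 3. The groups were separate, with Model 3 nearest to Ctrl. Btc rose by 0.67 ± 0.17 on the log2 scale, 1.60-fold (1.24 to 2.05), with an adjusted p of 0.0112 by edgeR. In a fit of only the Ctrl and Model libraries the calls of Btc (adjusted p 0.0579) and Hbegf (0.0684) were lost, at log2 fold changes of 0.69 and 1.03.

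Tgfa, which encodes transforming growth factor alpha, the ligand with the highest level in Ctrl, was not called. It had 49.8, 49.6 and 47.3 CPM in Ctrl 1, 2 and 3 and 58.4, 33.0 and 40.5 CPM in Model 1, 2 and 3. Model 1 lay above all Ctrl mice and the other Model mice below them, and the SD grew from 1.39 CPM in Ctrl to 13.1 in Model. The log2 fold change was -0.15 ± 0.18 (95% interval -0.54 to 0.24), with an adjusted p of 0.535. Without Model 1 the log2 fold change was -0.40, with an adjusted p of 0.0357 by edgeR, and without Model 2 its direction turned, at 0.040 with an adjusted p of 0.873.

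Nrg1 encodes neuregulin 1, a ligand of ErbB3 and ErbB4 that is made largely by stromal cells in the colon. It had 14.9, 16.1 and 12.8 CPM in Ctrl 1, 2 and 3 and 21.3, 22.2 and 29.9 CPM in Model 1, 2 and 3. The groups were separate, and Model 3, the lowest Model mouse for Areg, Btc, Hbegf and Egfr, was here the highest. Nrg1 rose by 0.74 ± 0.16 on the log2 scale, 1.68-fold (1.30 to 2.15), with an adjusted p of 0.00699 by edgeR.

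Among the receptors, only Egfr rose. It had 45.5, 43.7 and 44.2 CPM in Ctrl 1, 2 and 3 and 73.1, 61.0 and 54.8 CPM in Model 1, 2 and 3. The groups were well apart, and the Ctrl mice differed among themselves by less than 2 CPM. Its log2 fold change was 0.50 ± 0.09, 1.42-fold (1.23 to 1.63), with an adjusted p of 0.00284 by edgeR.

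Erbb2 had 198, 199 and 219.8 CPM in Ctrl 1, 2 and 3 and 170.4, 178 and 199.5 CPM in Model 1, 2 and 3. Its log2 fold change of -0.17 ± 0.09 was not called (adjusted p 0.163), and its 95% interval from -0.38 to 0.03 lay below the whole interval of Egfr, from 0.30 to 0.70. Erbb3 had 212, 208 and 230.5 CPM in Ctrl 1, 2 and 3 and 204, 218 and 288 CPM in Model 1, 2 and 3. Only Model 3 lay above the Ctrl range, and the log2 fold change of 0.13 ± 0.14 was not called (adjusted p 0.517, 95% interval -0.18 to 0.43).

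Epgn, the gene of epigen, had 6, 3 and 0 counts in Ctrl 1, 2 and 3, 3, 1 and 1 in Ctrl_Swim 2, 3 and 4, 11, 8 and 0 in Model 1, 2 and 3, and 5, 9 and 4 in Model_Swim 1, 2 and 3. All libraries lay at or below 0.590 CPM. Epgn was thus detected at the limit of this depth, with the highest counts in libraries with AOM and DSS and none in Model 3 and Ctrl 3, and no fold change was computed.

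The comparison of Model_Swim with Ctrl_Swim asks the same question in swimmers and shares no library with that of Model with Ctrl. Here 3 of the 9 genes rose and none fell, against 5.18% of all tested genes called and 3.49% called higher. Areg and Ereg passed the fold criterion as well, which 1.00% of all tested genes did in either direction. In 7 genes (Areg, Ereg, Btc, Hbegf, Nrg1, Egfr and Erbb3) all Model_Swim mice lay above all Ctrl_Swim mice, and 32.4% of all tested genes were without overlap in either direction. The same 7 genes had an unadjusted p under 0.05 in the edgeR test, and the share of all tested genes at this threshold was not computed. The median log2 fold change of the 9 genes was 0.48, and that of all tested genes was -0.01.

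Ereg had 6.25, 6.81 and 7.41 CPM in Ctrl_Swim 2, 3 and 4 and 22.6, 17.6 and 15 CPM in Model_Swim 1, 2 and 3. Again all mice with AOM and DSS lay far above those without, and the log2 fold change was 1.43 ± 0.21 (2.69-fold, 1.97 to 3.68, adjusted p 0.00587 by edgeR). Areg had 10.5, 6.33 and 7.82 CPM in the Ctrl_Swim mice and 27.6, 21.9 and 19.2 CPM in the Model_Swim mice. No Model_Swim mouse came as near to its controls as Model 3 had, and the log2 fold change was 1.48 ± 0.32 (2.78-fold, 1.70 to 4.57, adjusted p 0.0301 by edgeR).

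Egfr had 40.3, 43.4 and 39.4 CPM in Ctrl_Swim 2, 3 and 4 and 55.9, 57.3 and 59.0 CPM in Model_Swim 1, 2 and 3. Both groups were tight, and the log2 fold change of 0.48 ± 0.09 (1.40-fold, 1.22 to 1.61, adjusted p 0.0182 by edgeR) stood beside 0.50 in untrained mice. The calls of Areg and Egfr in swimmers were lost when any of the 6 swimming mice was left out (adjusted p 0.0571 to 0.106 for Areg and 0.0528 to 0.0794 for Egfr), and the log2 fold changes then lay between 1.31 and 1.68 for Areg and between 0.45 and 0.52 for Egfr. The fits without a swimming mouse called 1.08% to 2.92% of all tested genes in this comparison, against 5.18% with all libraries. Areg also missed the threshold without Ctrl 1, at an adjusted p of 0.0507 by edgeR, where 3.17% were called. Ereg was called in each of these fits. With the replicate number as a block, the calls of Ereg (adjusted p 0.065), Egfr (0.127) and Areg (0.137) in swimmers were all lost, at log2 fold changes of 1.47, 0.42 and 1.39. That fit called 0.258% of all tested genes in this comparison.

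The other 4 genes with separate groups were not called by edgeR, whereas DESeq2, the study's tool, called Nrg1 (adjusted p 0.0143) and Erbb3 (0.0390) among them. DESeq2 called 10.2% of all tested genes in this comparison. Nrg1 had 14.1, 17.2 and 11.6 CPM in Ctrl_Swim and 22.6, 21.6 and 20.2 CPM in Model_Swim, with a log2 fold change of 0.59 ± 0.16 and an adjusted p of 0.0652. Nrg1 was called by edgeR in a fit of only these groups (adjusted p 0.0468) and without Model 1 (0.0456). Hbegf had 12.1, 6.49 and 8.84 CPM against 14.9, 15 and 20.5 CPM, with a log2 fold change of 0.88 ± 0.32 and an adjusted p of 0.140. Btc had 8.0, 8.35 and 7.87 CPM against 10.1, 11.3 and 10.9 CPM, with a log2 fold change of 0.41 ± 0.16 and an adjusted p of 0.171. Both of these ligands had point estimates in swimmers below those in untrained mice, within their errors.

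Erbb3 had 251, 181 and 212 CPM in Ctrl_Swim 2, 3 and 4 and 281, 261 and 305 CPM in Model_Swim 1, 2 and 3, with a log2 fold change of 0.40 ± 0.14 and an adjusted p of 0.122. Without Model 3, which enters the estimate of the spread, Erbb3 and Nrg1 were called as well, with adjusted p values of 0.0420 and 0.0264 by edgeR. Tgfa had 56.6, 41.4 and 42.3 CPM against 54.0, 53.1 and 55.2 CPM, and Erbb2 had 219, 181 and 182 CPM against 196, 201 and 219.5 CPM. These ranges overlapped, with log2 fold changes of 0.21 ± 0.18 (adjusted p 0.526) and 0.08 ± 0.09 (adjusted p 0.641).

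**Figure D2:**
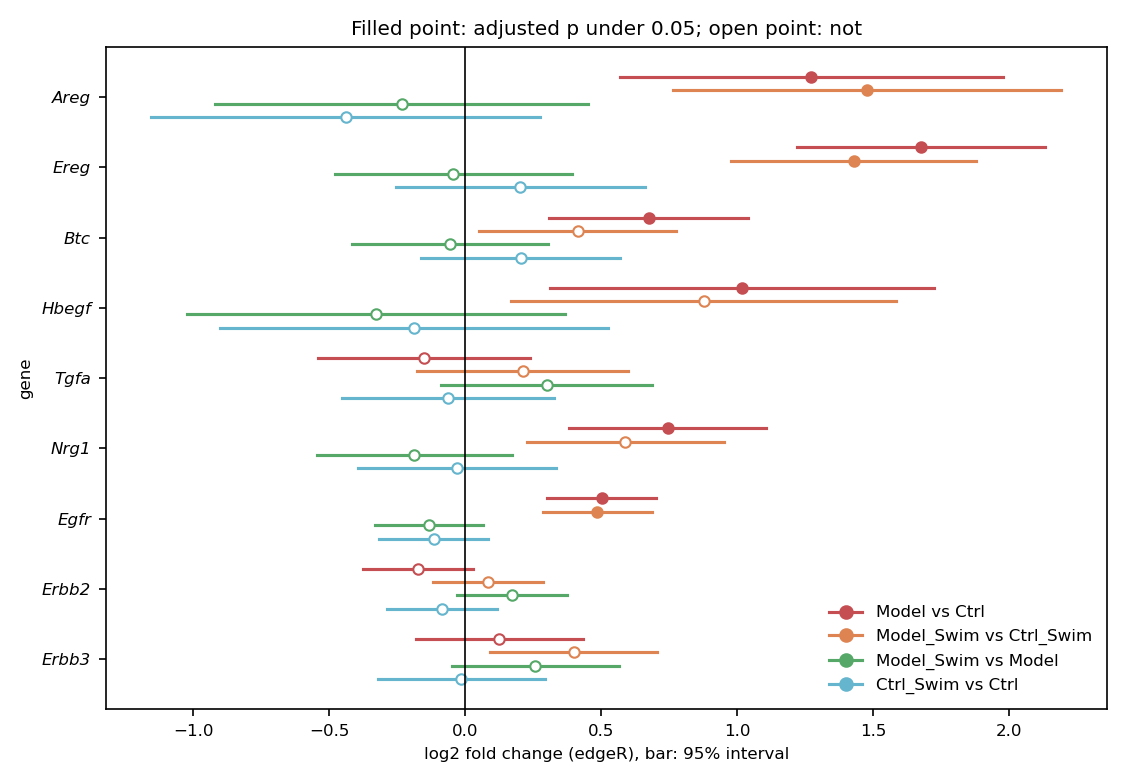
Log2 fold changes (x axis) of the 9 tested genes (y axis) in 4 comparisons, with 95% intervals from edgeR as bars; filled points have an adjusted p under 0.05. Points of Model vs Ctrl and of Model_Swim vs Ctrl_Swim lie to the right for Areg, Ereg, Btc, Hbegf, Nrg1 and Egfr, while the intervals of both swimming comparisons all include 0.

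The comparison of Model_Swim with Model asks what swimming changed in mice with AOM and DSS. It shares the Model mice with the comparison of Model with Ctrl. None of the 9 genes was called (adjusted p 0.450 to 0.947 by edgeR), none had an unadjusted p under 0.05, and DESeq2 called 0. Over all tested genes 0.0710% were called. The ranges of both groups overlapped in all 9 genes, while 16.9% of all tested genes were without overlap. The median log2 fold change was -0.06, against -0.01 over all tested genes.

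The 95% intervals below are those of the fit without covariates. For Ereg the log2 fold change of Model_Swim against Model was -0.04 (interval -0.48 to 0.39), and for Areg it was -0.23 (-0.92 to 0.45). Hbegf was at -0.33 (-1.02 to 0.36), Btc at -0.06 (-0.42 to 0.30) and Nrg1 at -0.19 (-0.55 to 0.17). The intervals of Areg and Hbegf still held a fall to a fold of 0.529 and 0.492, whereas those of the receptors were narrower. Egfr was at -0.13 (-0.33 to 0.07), Erbb2 at 0.17 (-0.03 to 0.37), Erbb3 at 0.26 (-0.05 to 0.56) and Tgfa at 0.30 (-0.09 to 0.69). Other fits gave values beyond these bounds for all of these genes but Btc and Hbegf, none of them called. With the acinar list (below) as a covariate Areg was at -0.94, Ereg at -0.52 and Tgfa at 0.84. With a term for the division by pancreatic reads (below) Nrg1 was at 0.23 and Erbb3 at -0.095. That term rests on Ctrl_Swim 3 against Ctrl_Swim 2 and 4 alone, as each of the other groups lies wholly on 1 side. With the colon epithelium list as a covariate Egfr was at 0.069, Erbb2 at -0.039 and Erbb3 at -0.080. The Model mice spread more than the Model_Swim mice in Areg (SD 12.2 against 4.31 CPM), Egfr (9.32 against 1.52) and Tgfa (13.1 against 1.05), and these differences in spread were not tested.

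Between Ctrl_Swim and Ctrl, mice without AOM and DSS, no gene of the 9 was called (adjusted p 0.503 to 0.967 by edgeR), none had an unadjusted p under 0.05, and DESeq2 called 0, with 0.969% of all tested genes called. Btc was higher and Egfr lower in swimmers without overlap, in a comparison where 27.4% of all tested genes were without overlap. Btc lay at 7.87 CPM or more in Ctrl_Swim and at 7.84 or less in Ctrl, a log2 fold change of 0.20 (-0.16 to 0.57). Egfr lay at 43.4 CPM or less in Ctrl_Swim and at 43.7 or more in Ctrl, a log2 fold change of -0.12 (-0.32 to 0.08). In the authors' FPKM the direction of Egfr turned, with 6.51 ± 0.072 in Ctrl and 6.56 ± 0.441 in Ctrl_Swim, and the groups overlapped.

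Whether AOM and DSS acted differently in swimmers was tested as the interaction in the same fit. It called none of the 9 genes (adjusted p 0.305 to 0.958 by edgeR), none at an unadjusted p under 0.05, and 0 by DESeq2, with 0.00% of all tested genes called. For Areg the log2 difference of the effects (swimmers minus untrained) was 0.21 (interval -0.78 to 1.20), and for Ereg it was -0.25 (-0.88 to 0.38). That Btc, Hbegf and Nrg1 passed the threshold in untrained mice and not in swimmers is therefore not shown to be a difference between swimmers and untrained mice.

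The 6 EGFR ligands were also summed per library in FPKM. The sum was 26.6, 24.0 and 29.3 in Ctrl 1, 2 and 3 and 29.9, 22.4 and 25.8 in Ctrl_Swim 2, 3 and 4. It was 54.6, 63.2 and 33.5 in Model 1, 2 and 3 and 50.2, 45.0 and 44.8 in Model_Swim 1, 2 and 3. All mice with AOM and DSS lay above all others, by 1.89 times in the means of Model and Ctrl and by 1.79 times in those of Model_Swim and Ctrl_Swim. An exact permutation test (two-sided) gave p = 0.1 for each, the smallest value that 3 mice against 3 allow, and 0.286 after adjustment over 20 tests of this kind.

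The makeup of the sum was compared as well. Tgfa was the most abundant ligand in Ctrl 1, Ctrl 2 and all Ctrl_Swim mice, Areg in Ctrl 3 and in all 6 mice with AOM and DSS. The ratio of Areg to Tgfa was 0.863, 0.675 and 1.03 in Ctrl 1, 2 and 3 and 1.82, 4.35 and 1.30 in Model 1, 2 and 3. In swimmers it was 0.696, 0.572 and 0.692 in Ctrl_Swim and 1.91, 1.54 and 1.30 in Model_Swim. The groups with AOM and DSS were above their controls without overlap, with p = 0.1 in each exact permutation test and 0.286 adjusted.

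Swimming alone went with an Areg share of the sum of 26.4 ± 2.13% in Ctrl_Swim against 32.3 ± 2.68% in Ctrl (SD, n = 3), without overlap and again at p = 0.1 (exact permutation test, 0.286 adjusted). The ligand sum (p = 0.8) and the ratio of Areg to Tgfa (p = 0.3, both by the same exact permutation test) overlapped between these groups, as did Areg itself. The sum of ligands per Egfr was 4.09 ± 0.418 in Ctrl, 4.01 ± 0.845 in Ctrl_Swim, 5.03 ± 1.30 in Model and 5.19 ± 0.50 in Model_Swim. These ranges overlapped in every comparison. The sum leaves out Egf itself, which is described below.

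**Figure D3:**
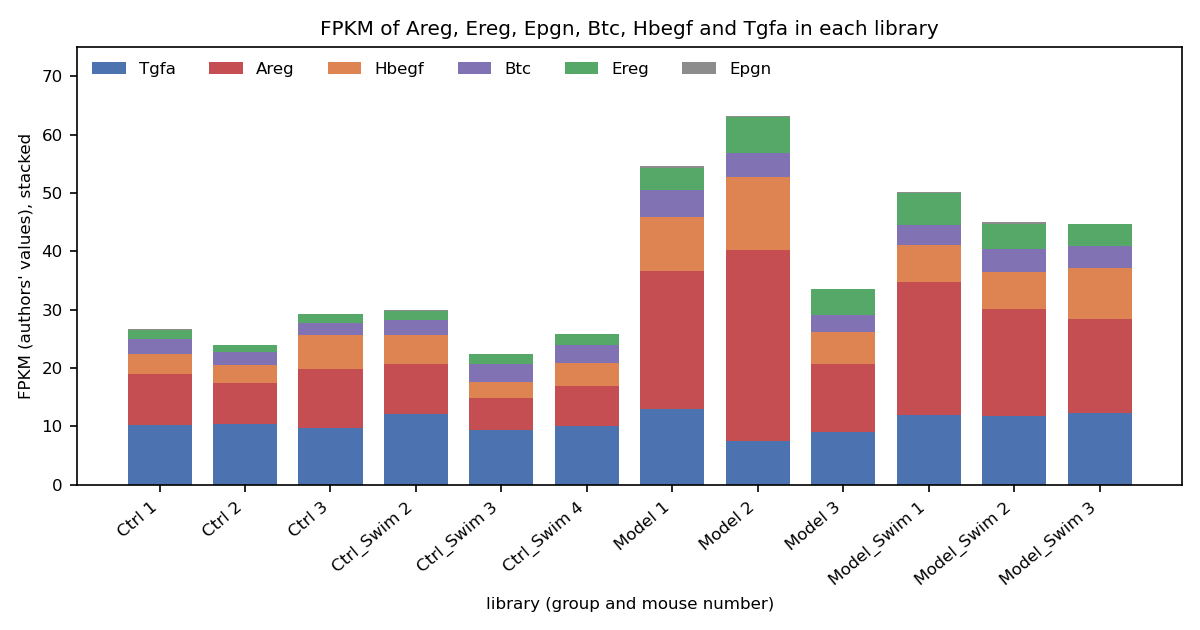
FPKM values of the 6 EGFR ligands (stacked bars, y axis from 0) in each of the 12 libraries (x axis). The stacks of the mice with AOM and DSS reach 33.5 to 63.2 FPKM and those of the other mice 22.4 to 29.9, and the Areg part is the widest in each Model and Model_Swim library.

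Values of 4 protein-coding genes beside the chromosome 5 cluster, 2 on each side, stand here for comparison. Cxcl2, a neutrophil chemokine gene before Mthfd2l, had at most 0.109 CPM in the Ctrl mice and at most 0.0548 in the Ctrl_Swim mice, against 0.230 to 5.31 in Model and 1.16 to 7.05 in Model_Swim. It passed the filter on low counts only through the groups with AOM and DSS, so no test is given for it. Mthfd2l, a folate enzyme gene, had a log2 fold change of 0.0048 ± 0.14 in Model against Ctrl (adjusted p 0.983) and of -0.15 ± 0.14 in swimmers (adjusted p 0.578). Parm1 had 0.29 ± 0.13 (adjusted p 0.10) and, in swimmers, 0.42 ± 0.13 (adjusted p 0.0808), beside 0.41 ± 0.16 for Btc there. Rchy1, after Parm1, had -0.07 ± 0.06 (adjusted p 0.375) and -0.02 ± 0.06 (adjusted p 0.849). Of the 3 cluster genes that were tested, all were called in untrained mice, and Areg and Ereg in swimmers, and the difference between the cluster genes and these neighbours was not tested.

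The remaining genes of the pathway were read in 6 lists written from general knowledge. Of the other ligands Egf, Nrg2, Nrg3 and Nrg4, 0 of 4 were called in any comparison by edgeR or DESeq2 (1 at an unadjusted p under 0.05, in Ctrl_Swim against Ctrl). Egf itself had 7.24 ± 1.85 CPM in Ctrl and 8.38 ± 3.44 in Model, with a log2 fold change of 0.21 ± 0.30. The receptor Erbb4 was not tested, as it had 2 counts in all Ctrl, 2 in all Ctrl_Swim, 10 in all Model and 1 in all Model_Swim libraries. Erbb3, the other receptor gene for Nrg1, had at least 3403 counts in each library.

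Genes for shedding and transport of the ligands had 3 of 12 members called higher and 2 lower in Model against Ctrl (median log2 fold change 0.10), a share of calls near the 32.7% of all tested genes. Adam12, a metalloprotease, rose by 2.55 ± 0.52 on the log2 scale (adjusted p 0.00458), from 1.30 ± 0.339 to 7.65 ± 6.61 CPM (SD, n = 3), with 15.3 CPM in Model 1. Without Model 1 the log2 fold change was 1.57 (adjusted p 0.00352), a fold of 2.96 in place of 5.86. Adam17, the main sheddase of Areg, Ereg, Hbegf and Tgfa, rose by 0.27 ± 0.06 (adjusted p 0.00529), from 49.6 to 59.9 CPM. Rhbdf2, which encodes iRhom2 and guides ADAM17 to the cell surface, rose by 0.42 ± 0.10 (adjusted p 0.0120). Cnih4, a cornichon gene of the export from the endoplasmic reticulum, fell by 0.35 ± 0.08 (adjusted p 0.00617), and Cnih1 was the other gene called lower. In swimmers 2 of 12 were called, both higher, with Adam12 among them, against 5.18% of all tested genes.

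Feedback inhibitors of the receptors and of the MAP kinases below them had 11 of 23 genes called in Model against Ctrl, all of them higher, at a median log2 fold change of 0.32. Over all tested genes 32.7% were called and 16.5% called higher. Dusp6, a phosphatase of ERK kinases, had 33.8 ± 6.22 CPM in Ctrl and 79.7 ± 25.1 in Model and rose by 1.24 ± 0.21 on the log2 scale (adjusted p 0.00218). Socs3, a suppressor of cytokine signalling that also responds to STAT3, had 10.8 ± 1.48 CPM in Ctrl and 42.4 ± 9.73 in Model and rose by 1.97 ± 0.36 (adjusted p 0.00284). Spred3, of a family that restrains the RAS pathway, rose by 1.12 ± 0.17 (adjusted p 0.00137), whereas in swimmers it was at 0.03 ± 0.17 (adjusted p 0.930). Cblb, a ubiquitin ligase, rose by 0.46 ± 0.09 (adjusted p 0.00493). In swimmers, where 3.49% of all tested genes were called higher, 5 of 23 were called, all higher, and these were Ptprj, Spry4, Dusp6, Dusp5 and Errfi1.

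Transducers below the receptors had 5 of 29 members called higher and 5 lower in Model against Ctrl and a median of -0.02, again a share of calls near the 32.7% of all tested genes. Plcg1, phospholipase C gamma, rose by 0.65 ± 0.11 on the log2 scale (adjusted p 0.00179). The kinase genes of the ERK pathway fell, with Map2k2 at -0.41 ± 0.07 (adjusted p 0.00192), Map2k1 at -0.47 ± 0.09 (0.00353) and Mapk3 at -0.48 ± 0.09 (0.00378). Mapk3 had 482 ± 16.1 CPM in Ctrl, 344 ± 19.3 in Model, 468 ± 62.9 in Ctrl_Swim and 434 ± 26.4 in Model_Swim. In swimmers 2 of 29 were called, both higher, near the 5.18% of all tested genes.

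Early response genes and genes known as ETS targets had 8 of 22 called higher and 2 lower in Model against Ctrl, with a median of 0.38, beside 16.5% called higher over all tested genes. Plaur, the urokinase receptor, had 6.45 ± 1.26 CPM in Ctrl and 15.6 ± 1.16 in Model and rose by 1.28 ± 0.15 on the log2 scale (adjusted p 0.000441). Egr1, an immediate early gene, went from 19.2 ± 5.67 to 53.4 ± 12.9 CPM and rose by 1.47 ± 0.25 (adjusted p 0.00214). Jun rose by 0.77 ± 0.14 (adjusted p 0.00242) and Phlda1 by 1.33 ± 0.30 (adjusted p 0.00820), and the genes called lower were Hmga2 and Emp1. In swimmers 9 of 22 were called, all higher (3.49% of all tested genes), with a median of 0.71, and these included Plaur, Egr1, Jun and Phlda1.

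In Model_Swim against Model, 0 genes of any of these lists were called by edgeR, and 1 transducer by DESeq2, which called 2.26% of all tested genes. At an unadjusted p under 0.05 by edgeR there were 1 gene of shedding, 2 of feedback, 5 of transducers and 1 of early and ETS targets. The interaction called 0 genes of these lists by edgeR, and 3 feedback genes and 1 transducer by DESeq2, which called 4.97% of all tested genes. At an unadjusted p under 0.05 by edgeR the interaction had 1 shedding, 3 feedback, 12 transducer and 3 early and ETS target genes. Shares of all tested genes at an unadjusted p under 0.05 were not computed. In Ctrl_Swim against Ctrl, DESeq2 called 2 shedding, 2 feedback, 1 transducer and 1 early and ETS target gene, with 4.28% of all tested genes called. At an unadjusted p under 0.05 by edgeR there were 3 feedback, 7 transducer and 2 early and ETS target genes. By edgeR, with 0.969% of all tested genes called, the other 3 lists had 0 called genes and the shedding list had 1. This was Timp3, an inhibitor of metalloproteases, named after its value was seen, with 173 ± 8.14 CPM in Ctrl and 224 ± 9.50 in Ctrl_Swim and a log2 fold change of 0.38 ± 0.07 (adjusted p 0.0465). Its call was lost when any of these 6 libraries was left out (adjusted p 0.0572 to 0.159), at log2 fold changes of 0.36 to 0.43. The counts of Model against Ctrl changed when single libraries were left out, as did the share of all tested genes called, 32.7% with all libraries. Without Ctrl 2, where that share was 20.1%, the counts were 4 for shedding, 7 for feedback, 5 for transducers and 5 for early and ETS targets. The last count was 6 without Ctrl 1 (share 22.3%) and 5 without Ctrl 3 (20.8%) or Model 2 (23.0%). In the same order of lists the counts were 2, 8, 6 and 3 with the squamous list as a covariate (share of all tested genes 16.8%). They were 3, 7, 6 and 7 with the acinar list (19.7%), and 1, 4, 0 and 6 under the study's cutoffs (7.43%). With the colon epithelium list as a covariate, an alternative added after the data were seen, 1 feedback gene was called and none of the other pathway lists, in a fit that called 0.820% of all tested genes. These genes respond to many receptors, and the share of EGF family signalling in their levels was not tested.

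**Figure D4:**
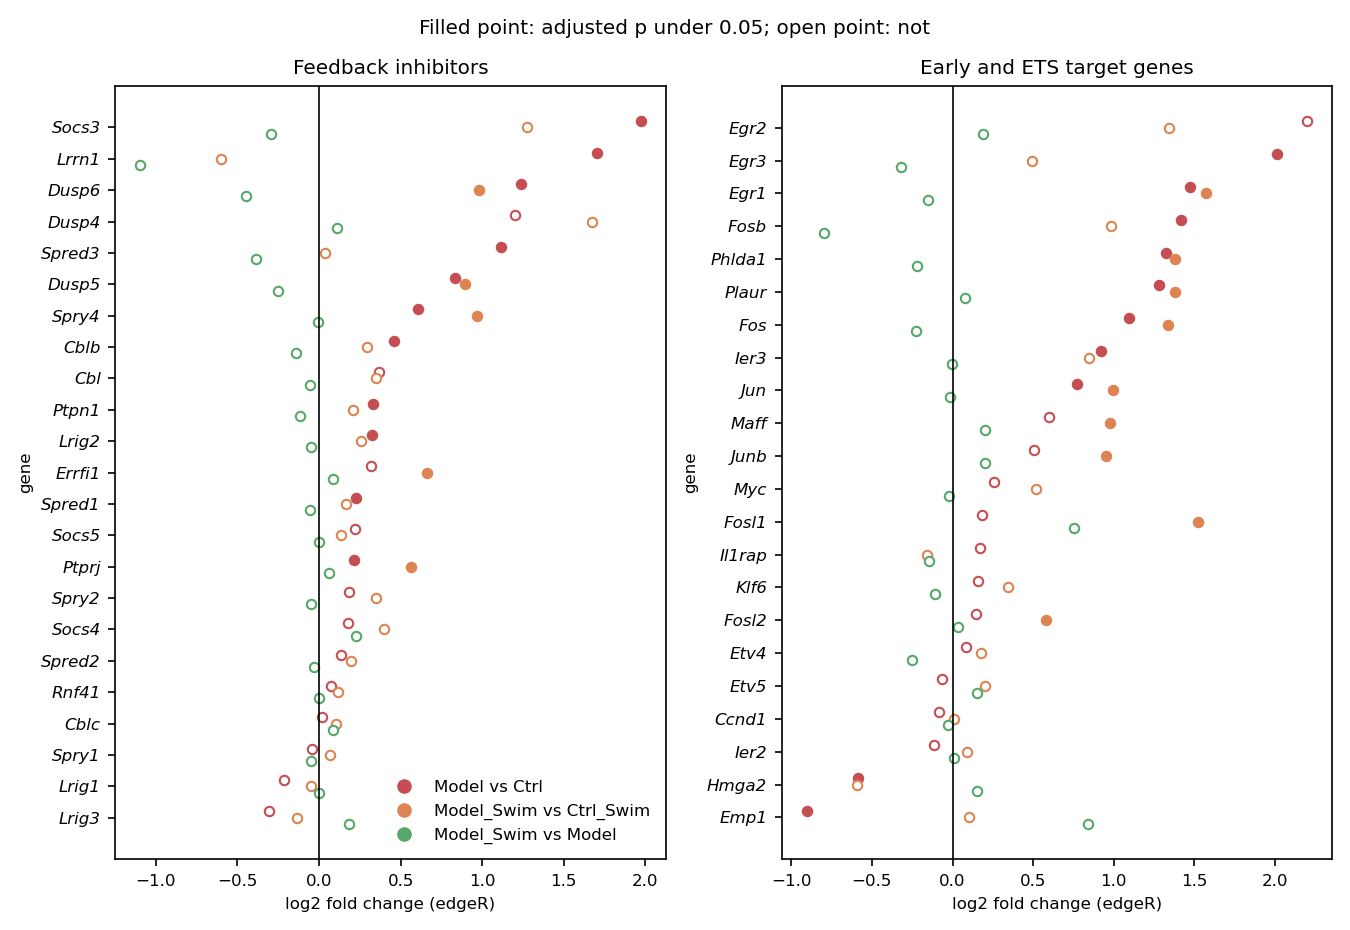
Log2 fold changes (x axes) of 23 feedback inhibitors and 22 early and ETS target genes (y axes, ordered by Model vs Ctrl) in 3 comparisons, with filled points where the adjusted p was under 0.05. Filled points of the comparisons with and without AOM and DSS lie mostly to the right of 0, except Hmga2 and Emp1, and no point of Model_Swim vs Model is filled.

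Levels of marker genes of several cell types were read beside the EGF family genes. The summed CPM of 28 genes of squamous epithelium was 489 to 547 in Ctrl, 438 to 1669 in Ctrl_Swim, 471 to 3110 in Model and 735 to 2092 in Model_Swim. Perp, Sfn and Krt5 were the most abundant of the list, and Perp and Sfn are also made by other epithelia. Between 3 and 4 of the 28 genes were at 0 in each Ctrl library, 4 in Model 3, and none in Model 1, Model 2 and the Model_Swim libraries. Such genes passed the filter on low counts through other libraries, so no count of calls is given for this list. Model 3, at the Ctrl level of this list with 471 CPM, had Areg at 14.0, Ereg at 17.9 and Egfr at 54.8 CPM, each above all Ctrl mice. Areg and Egfr were lowest there among the Model mice, and Ereg was not. Ctrl_Swim 4, with 1669 CPM of the list, had Areg at 7.82 and Ereg at 7.41 CPM.

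With the squamous list as a covariate, Ereg, Egfr and Nrg1 were still called in Model against Ctrl, and Areg (log2 fold change 0.68, adjusted p 0.192), Btc (0.45, 0.129) and Hbegf (0.49, 0.357) were not, in a fit that called 16.8% of all tested genes. In Model_Swim against Ctrl_Swim, Areg, Ereg and Egfr were called with that covariate, and Nrg1 in addition (0.74, adjusted p 0.00837). Model_Swim 1 had only 735 CPM of the squamous list and the highest Areg of its group, 27.6 CPM.

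**Figure D5:**
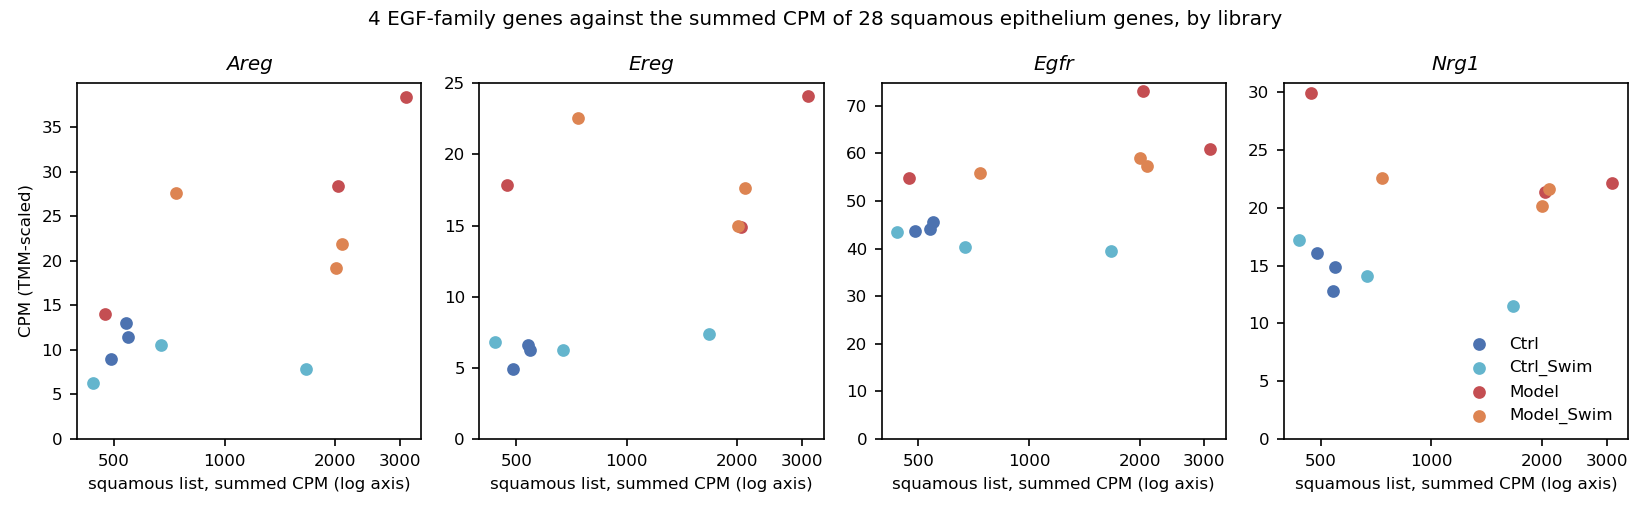
CPM of Areg, Ereg, Egfr and Nrg1 (y axes from 0) against the summed CPM of 28 squamous epithelium genes (x axes, log scale), 1 point per library. Model 3 (471 on the x axis) and Model_Swim 1 (735) have the lowest sums of their groups and lie above all Ctrl and Ctrl_Swim points in all 4 genes, and Ctrl_Swim 4 (1669) lies below all Model and Model_Swim points.

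Of 18 colon epithelium genes, 11 were called in Model against Ctrl, all lower. Over all tested genes 32.7% were called in this comparison and 16.5% called higher. With the colon epithelium list as a covariate, only Ereg of the 9 genes was called in Model against Ctrl (log2 fold change 1.92, adjusted p 0.0493). The log2 fold changes of the calls lost were 1.32 for Areg, 1.18 for Hbegf and 1.07 for Nrg1, all above those without the covariate, and 0.22 for Btc and 0.22 for Egfr, below them. With the same covariate, Areg, Ereg and Egfr were called in Model_Swim against Ctrl_Swim. That fit called 0.820% of all tested genes in Model against Ctrl and 8.69% in Model_Swim against Ctrl_Swim. Fibroblast genes summed to 1875 to 2017 CPM in Ctrl and to 3154 to 3301 in Model, with 9 of 10 called higher, and macrophage genes to 458 to 477 CPM and 858 to 933, with 10 of 12 called higher and 1 lower. Neutrophil genes summed to 20.6 to 33.6 CPM in Ctrl and to 34.9 to 207 in Model. Between 2 and 3 of these 13 genes were at 0 in each Ctrl library. Genes so scarce there can pass the filter on low counts through the libraries with AOM and DSS, so no count of calls is given for this list. In swimmers the macrophage sum was 416 to 526 CPM in Ctrl_Swim and 739 to 888 in Model_Swim, and the fibroblast sum 1760 to 2083 and 2475 to 3104. The neutrophil sum was 27.2 to 34.2 CPM in Ctrl_Swim and 62.2 to 236 in Model_Swim. The adipocyte sum was 82.1 to 112 CPM in Ctrl_Swim and 125 to 254 in Model_Swim, without overlap. Of its 8 genes, 0 were called by edgeR, 4 had an unadjusted p under 0.05 and 2 were called by DESeq2, which called 10.2% of all tested genes there. Of 10 smooth muscle and 8 adipocyte genes, 0 were called in Model against Ctrl by edgeR (0 and 1 at an unadjusted p under 0.05). DESeq2 called 0 and 1 of them, and 35.8% of all tested genes. Of 7 enteric glia genes, 2 were called by edgeR, both lower. The part of these cells in the levels of the EGF family genes was not tested.

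Of the libraries with pancreatic RNA, Model 1 had 28.4 CPM of Areg and 73.1 of Egfr and Model 3 had 14.0 and 54.8, and the part of that RNA in the levels was not tested. With the acinar list as a covariate, Areg, Ereg, Hbegf and Egfr were called in Model against Ctrl, and Btc (log2 fold change 0.69, adjusted p 0.0621) and Nrg1 (0.57, 0.0943) were not, beside 0.67 and 0.74 without the covariate, in a fit that called 19.7% of all tested genes. Low reads of pancreatic genes also divided the other libraries: Ctrl_Swim 2, Ctrl_Swim 4 and the Model_Swim libraries had fewer than the rest. Model against Ctrl lies within 1 side of this division. Within the other side, Model_Swim lay above Ctrl_Swim 2 and 4 in Areg by 2.50 times, in Ereg by 2.69 times and in Egfr by 1.44 times in the mean CPM, each without overlap. Btc, Hbegf, Erbb3, Nrg1 and the scarcely detected Epgn were also without overlap there, and Tgfa and Erbb2 overlapped. No share over all tested genes is given for this split of 3 against 2 libraries, where separation is easily reached. With a term for the division in the fit of all libraries, Ereg and Egfr were called in Model_Swim against Ctrl_Swim and Areg was not (log2 fold change 1.32, adjusted p 0.0994), in a fit that called 1.38% of all tested genes. All Model_Swim libraries had fewer such reads and all Model libraries more, so that within this division the comparison of Model_Swim with Model could not be made.

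Genes whose log2 CPM ran most closely with an EGF family gene were looked up among 13995 genes with a mean of at least 1 CPM, as a description over 12 libraries that share their groups. For Ereg these were Gpnmb (Pearson r 0.98), Fam63b and Cd68, of which Cd68 is a macrophage marker of the list above. For Areg they were Trib1 (0.96), Tm4sf20 and Litaf, and for Hbegf Apobec1 (0.97), Zbtb42 and the immediate early gene Fos. For Egfr they were Sh3pxd2b (0.99), Pmepa1 and Ptpn12, and for Nrg1 Klhl28 (0.98), Pcdhgc3 and Stab1. Btc was nearest to Abcc4 (0.97), Tgfa to Smap1 (0.91), Erbb2 to Mxi1 (0.94) and Erbb3 to Jmy (0.91).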

How the data were processed

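The labels name mRNA libraries of colorectal tissue (TruSeq Stranded mRNA kit, Illumina HiSeq X), and nothing says that a mouse gave more than 1 library. Reads were trimmed by the authors (Trimmomatic) and mapped with HISAT2 to GRCm38.p6, and raw counts from HTSeq-count were deposited. They also deposited FPKM values from Cufflinks, which were proportional to each gene's share of the counts within a tolerance of 1.7e-07. Versions, annotation release and strand setting are not given in the sources used here. Reads of genes that overlap on opposite strands may therefore not be separated. These are Ereg and Gm19610, Egfr and Egfros, Tgfa and Gm43917, Erbb2 with Mien1 and Gm25048, and Nrg1 with Gm26578 and Gm22140. Erbb3 overlaps Mir6917 on the same strand. The methods name TRIzol and the labels a mirVana kit for extraction.

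Counts were tested in R 4.3.3 with edgeR 4.0.16 (TMM, filterByExpr with a minimum count of 10, quasi-likelihood fit of all 4 groups). P-values were adjusted by Benjamini-Hochberg over 15484 genes, and an adjusted p under 0.05 is a call. The SE is the log2 fold change divided by the square root of F. Log2 CPM used a prior count of 2. Of 18514 genes, 115 had no count. Alternatives were DESeq2 1.42.0 (the study's tool), its size factors, no filter, only the groups compared, the study's cutoffs, a replicate block, covariates, limma 3.58.1 on log2(FPKM + 1) and log2(FPKM + 0.1), and leaving out each library. The code was tested on simulated data.

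The genes and lists were chosen with earlier results of these data known. All 10 genes are named, and of each pathway list up to 4 called genes with the smallest adjusted p in Model against Ctrl. Of each cell list, up to 3 genes of highest mean CPM are named, and of like genes the 3 with the highest r. Called genes beyond these were named after their values were seen.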

Additional observations from a re-analysis of the deposited data

How the results depend on the processing

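In Model against Ctrl, 6 EGF family genes were called. The share of all tested genes called was 32.7%. The count was 3 with the squamous list as a covariate (share 16.8%) and 3 under the study's cutoffs (7.43%). It was 1 with the colon epithelium list as a covariate (added after the data were seen, share 0.820%), and 4 to 6 when 1 library was left out (20.1% to 35.8%). In Model_Swim against Ctrl_Swim, 3 genes were called (share of all tested genes 5.18%). The count was 5 by DESeq2 (10.2%), 0 with the replicate block (0.258%), and 1 to 5 when 1 library was left out. It was 5 without Model 3 (9.30%), and 1, Ereg, without any 1 of the swimmers (1.08% to 2.92%). The sources used here do not say whether the replicate numbers pair the mice. Of 15 pairs of libraries with the same number, 4 had a correlation over 0.1, in a range from -0.261 to 0.564. Pairs with different numbers lay between -0.557 and 0.451, so these correlations do not decide it. With the block the adjusted p in swimmers was 0.065 for Ereg, 0.127 for Egfr and 0.137 for Areg, and Hbegf lost its call in Model against Ctrl (0.0746). The other 3 comparisons had 0 calls under each alternative. Ereg in Model against Ctrl was called in all 25 alternatives, with adjusted p values up to 0.0493.

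Of 773 alternative values of single genes, 706 kept their direction and their side of the threshold, 39 lost a call, 8 gained one and 20 changed sign, none of these from a call. In Model_Swim against Model, Nrg1 was at 0.056 with the acinar covariate. The term for the division by pancreatic reads rests on Ctrl_Swim 3 against Ctrl_Swim 2 and 4 alone. With it Nrg1 was at 0.23, Btc at 0.017 and Erbb3 at -0.095 in Model_Swim against Model. With the colon epithelium covariate Btc was there at 0.27, Egfr at 0.069, Erbb2 at -0.039 and Erbb3 at -0.080, and Erbb2 in Model against Ctrl at 0.12. The interaction of Areg was -0.29 with the acinar covariate. Egfr in Ctrl_Swim against Ctrl was 0.0089 by limma on log2(FPKM + 1), with and without a filter, and 0.0099 on log2(FPKM + 0.1). When 1 library was left out, Model_Swim against Model ranged from -0.53 to 0.093 for Areg, from -0.23 to 0.16 for Ereg and from -0.22 to 0.095 for Btc. In Model against Ctrl, Tgfa ranged from -0.40 to 0.040 and Erbb3 from -0.030 to 0.23, and the interaction of Areg ranged from -0.11 to 0.52. These values are log2 fold changes, and the causes were not tested. Depth limits Epgn and Erbb4, which were not tested, and 3 mice per group limit the rest.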
